A study of Mus musculus with 6 samples.

Results

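Heat shock, DNAJ and chaperonin genes encode the cell's protein-folding machines, and their messenger RNAs were followed here in immunoprecipitates of PNMA4 from mouse testis. They were taken from the deposited count table by gene symbol alone. The rule took the symbols of the HSP70 and HSP110, HSP90, small heat shock, DNAJ and chaperonin families, including the TRiC subunit gene Tcp1, and required at least 1 count. It found 81 genes among 34610 genes with a count. They fall into 14 HSP70 and HSP110 genes, 3 HSP90 genes, 2 genes of the mitochondrial chaperonin, 9 genes of the cytosolic chaperonin TRiC, 8 small heat shock genes, 4 DNAJA genes, 13 DNAJB genes and 28 DNAJC genes.

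HSP70 proteins bind unfolded stretches of a client and release them in a cycle driven by ATP. DNAJ proteins deliver clients to HSP70 and start that hydrolysis, HSP110 proteins exchange the nucleotide, HSP90 acts later on maturing clients, small heat shock proteins hold unfolded proteins, and chaperonins enclose a client in a chamber. Male germ cells carry forms of their own, among them Hspa2, needed for meiosis and male fertility, and Hspa1l, made in spermatids.

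PNMA4 is the product of a gene derived from a retrotransposon capsid gene and is listed in the table as Moap1. Of the 6 libraries, 3 came from wild-type mice, which the protocol gives as C57BL/6J, and 3 from mice lacking PNMA4. In the second group, replicates 1 and 2 were Pnma4-/- and replicate 3 was the double knockout (DKO), Pnma1-/- Pnma4-/-, which the submitters counted as the third replicate. Each library pooled 8 testes of mice aged 3 months, whose lysate was sedimented through sucrose and then separated on iodixanol before the PNMA4 antibody and Protein A beads were applied, so all 6 went through the same antibody step. Input RNA was not analysed here, and a level below is therefore an abundance in what the antibody step recovered. In these bulk samples, fewer cells of a type, less RNA per cell and a lower recovery through these steps cannot be told apart.

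Total counts per library ran from 3138657 to 6367930. Levels are given as CPM, counts scaled to a common library size, with TMM factors that ran from 0.628 in the DKO library to 1.29 in wild type replicate 2. As a check of the labels, Moap1 was counted 7, 26 and 27 times in wild type and 0 times in each of the other libraries, and Pnma1 was at 0 counts in the DKO and in no other library. Spermatocyte markers passed the filter on low counts in 9 of 9 genes (summed levels of 1338 to 1716 CPM) and spermatid markers in 12 of 12 (1246 to 1686 CPM), while the blood markers summed to 5.88 to 14.7 CPM. The DKO library stood apart in composition: Rn18s-rs5, an 18S ribosomal RNA related sequence, took 57.5% of its counts, against 27.3 to 36.1% in the others. Its 8 Leydig cell markers summed to 424 CPM, against 164 to 213 CPM. Each of these markers but Star was highest in the DKO, and Star stood at 46.48 CPM there and 38.25 to 46.79 CPM elsewhere. The 10 Sertoli cell markers summed to 320 CPM in the DKO, against 146 to 221 CPM elsewhere. Clu alone stood at 190 CPM there, against 62.8 to 132 CPM elsewhere. All 10 were highest in the DKO, some by little, such as Sox9 at 23.7 CPM against 19.6 to 22.0 CPM. Epididymis markers summed to 7.42 to 11.3 CPM in wild type and 14.6 to 27.4 CPM without PNMA4. Lcn5 and Adam28 were at 0 in all libraries, 2 of 8 were tested and 1 was called lower in wild type. The called gene was Crisp1, at 0.154 to 0.64 CPM in wild type and 3 to 8.03 CPM without PNMA4. The other was Cst8, whose groups overlapped, at 6.78 to 10.8 CPM and 10.4 to 18.4 CPM.

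The first comparison asks whether RNA of these genes came down with PNMA4 in excess of what the antibody and beads yield when the protein is missing. No chaperone gene was called. Of the 81 genes, 72 passed the filter, and 0 of these 72 had an adjusted p under 0.05 in edgeR's quasi-likelihood test over 13413 genes, in which 0.0596% of all genes were called. DESeq2 likewise called 0 of 72. At an unadjusted p under 0.05 there was 1 gene, the TRiC subunit gene Cct4, against 2.92% of all genes tested. On the log2 scale, with wild type over lacking PNMA4, 30 of the 72 differences were positive and 42 negative, with a median of -0.04, beside a median of 0.01 over all genes, of which 52.0% were positive. The adjusted p of edgeR was 1 for all 72. The labels call the lysates of a group biological replicates, and the p-values of this comparison measure the spread between these pooled lysates. In the group lacking PNMA4, that spread also holds any difference between the DKO and the Pnma4 knockout libraries.

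These null calls came with fairly narrow intervals. For 66 of the 72 genes the 95% interval of the difference lay within 1 of 0 on the log2 scale, that is within a doubling either way, against 71.1% of all genes tested. The other 6 were Hspa13, Hspa1a, Hspa1b, Hspe1, Hspb1 and Dnajc25. The share over all genes was not matched for depth of counting. Dnajc19, at 6 to 17 counts per library, is among the 66 with an SE of 0.36. Hspe1, at 5 to 17 counts, had an SE of 0.50, so the interval of Dnajc19 may be too narrow. Over the 6 libraries the tested chaperone genes had a median coefficient of variation of 15.5%, with a range of 7.56 to 54.5%, and all tested genes had a median of 22.5%. These medians were likewise not matched for depth of counting. All CPM of the 81 genes summed to 6504 ± 532 in the wild-type group and to 6727 ± 467 in the group lacking PNMA4 (SD, n = 3 each).

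**Figure D1:**
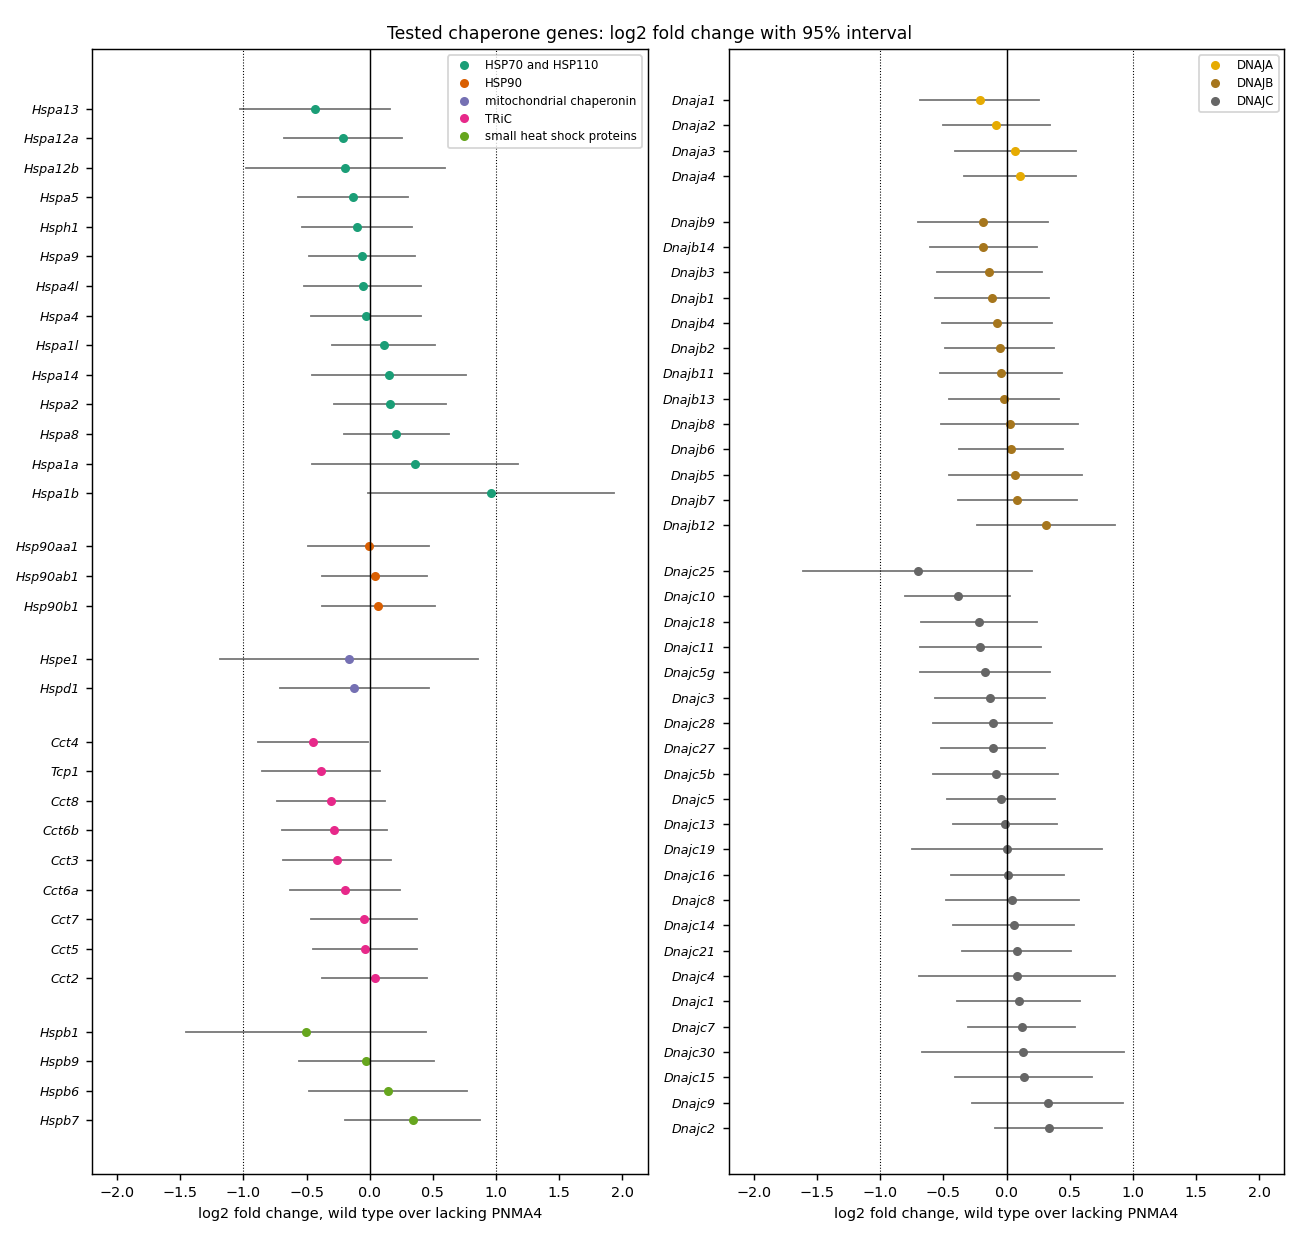
Log2 fold change, wild type over lacking PNMA4, of the 72 tested genes by family (points) with 95% intervals (lines) from edgeR's fit; dotted lines mark a doubling either way. The points scatter on both sides of 0, 66 intervals lie inside the dotted lines, and 8 of the 9 TRiC points lie below 0.

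The germ cell members of the HSP70 and HSP110 family were among the deeply counted genes, with 1629 to 5765 counts per library for Hspa2. Hspa2 encodes the meiotic HSP70 that takes part in the desynapsis of chromosomes in spermatocytes. It stood at 639, 737 and 554 CPM in wild-type replicates 1 to 3 and at 607, 576 and 545 CPM without PNMA4. The groups overlapped, since wild type replicate 3 lay below both Pnma4 knockout libraries. The difference was 0.16 (SE 0.22, edgeR adjusted p = 1), with a 95% interval of -0.28 to 0.60. It was 0.06 without wild type replicate 2, the library in which Hspa2 was highest.

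Hspa1l, the spermatid HSP70, stood at 95.7, 106 and 86.2 CPM in wild type and at 87.9, 95.9 and 82.9 CPM without PNMA4. Its highest library was wild type replicate 2 and its lowest the DKO, with the other 4 interleaved. The log2 difference was 0.11 (SE 0.20), with an interval of -0.30 to 0.52, and it was 0.04 without wild type replicate 2. Hspa4l, an HSP110 member prominent in male germ cells, had 557, 442 and 655 CPM in wild type and 466, 622 and 631 CPM without PNMA4. Wild type held both its highest and its lowest library. The log2 difference was -0.06 (SE 0.23, interval -0.52 to 0.41). Its sign turned in 4 of 13 alternatives, among them leaving out wild type replicate 2, where it was 0.09. The CPM of these 3 genes summed to 1291 ± 4.33 for wild type, against 1238 ± 69.3 for the group lacking PNMA4 (SD, n = 3 each).

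**Figure D2:**
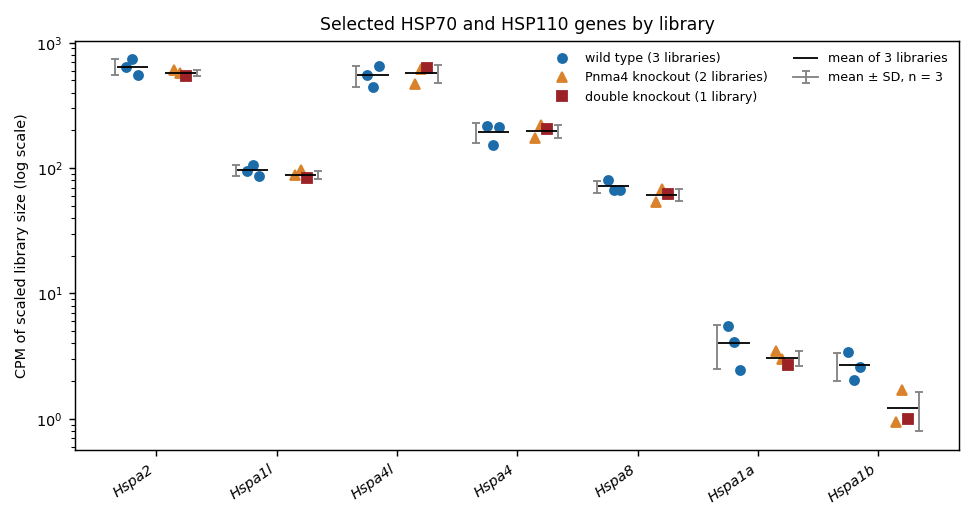
CPM (log axis) of 7 HSP70 and HSP110 genes in each of the 6 libraries (points) with mean ± SD per group. For Hspa2, Hspa1l and Hspa4l the points of the groups interleave, and for Hspa1b the wild-type points, at 2.05 to 3.42 CPM, lie above the others, at 0.952 to 1.71 CPM.

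The stress-inducible HSP70 genes were present at a few counts. Hspa1b and Hspa1a are near-identical copies on chromosome 17, and Hspa1l is their neighbour: the annotated starts of Hspa1a and Hspa1l lie 546 bases apart and point away from each other, and 10120 bases separate the start of Hspa1b from the end of Hspa1a. The sequences of the 250 bases before each start, from RefSeq on GRCm38.p6, are shown because they display how alike the pair of copies is and how the testis form differs. They cover chr17:34972157-34972406 on the minus strand for Hspa1a, chr17:34959239-34959488 on the minus strand for Hspa1b and chr17:34972453-34972702 on the plus strand for Hspa1l. All are written 5′ to 3′, and capitals mark a match to the heat shock element forms GAANNTTC or TTCNNGAA, the inverted units bound by heat shock factors.
Hspa1a: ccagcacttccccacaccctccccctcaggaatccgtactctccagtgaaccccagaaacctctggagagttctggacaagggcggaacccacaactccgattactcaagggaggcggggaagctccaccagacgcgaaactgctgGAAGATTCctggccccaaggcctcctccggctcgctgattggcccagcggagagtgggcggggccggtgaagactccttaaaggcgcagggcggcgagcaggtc
Hspa1b: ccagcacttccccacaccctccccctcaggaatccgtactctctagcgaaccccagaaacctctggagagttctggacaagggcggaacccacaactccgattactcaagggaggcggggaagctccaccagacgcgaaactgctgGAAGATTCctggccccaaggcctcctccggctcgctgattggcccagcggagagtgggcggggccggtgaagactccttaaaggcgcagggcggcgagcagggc
Hspa1l: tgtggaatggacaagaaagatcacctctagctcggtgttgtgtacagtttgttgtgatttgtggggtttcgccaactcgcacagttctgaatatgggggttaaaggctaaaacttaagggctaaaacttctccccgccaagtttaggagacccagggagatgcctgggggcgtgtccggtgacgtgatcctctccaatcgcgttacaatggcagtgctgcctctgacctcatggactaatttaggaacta

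The windows of Hspa1a and Hspa1b were identical at 247 of 250 bases (98.8%) and held 1 match each, and the window of Hspa1l held 0. A match is a description of letters, not a binding site. Such forms, which read alike on both strands and may overlap each other, occurred in 18 of 85 windows of the 66 chaperone genes with a RefSeq window (21.2%) and in 12.8% of 32851 windows of all genes. GAANNTTC alone was in 15.3% against 6.69%, and TTCNNGAA alone in 10.6% against 7.17%. Of the 16 genes with a match, 15 were tested, with a median log2 difference of -0.08 and 9 of the 15 negative. The 45 tested genes without a match had a median of -0.03, with 25 negative.

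Reads of Hspa1b numbered 13, 16 and 17 in wild type, against 3, 12 and 3 in the other group, or 3.42, 2.05 and 2.61 CPM against 0.952, 1.71 and 1.00 CPM. Every wild-type library lay above every library lacking PNMA4. It was the 1 chaperone gene higher in wild type without overlap, a pattern shown by 3.28% of all genes tested. Its log2 difference of 0.96 (SE 0.47) had an edgeR adjusted p of 1, an unadjusted p of 0.0527 and an interval of -0.01 to 1.94. For its copy Hspa1a the counts were 21, 32 and 16 against 11, 21 and 8. Its groups overlapped, at 5.52, 4.09 and 2.46 CPM against 3.49, 3.00 and 2.67 CPM, and the difference was 0.36 (SE 0.40). How the counting divided reads between the copies is not given in the sources used here, so the value of either is uncertain.

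Among the general HSP70 and HSP110 genes, Hspa4, an HSP110 nucleotide exchanger, had 217, 153 and 215 CPM in wild type and 172, 219 and 204 CPM without PNMA4. Its difference was -0.03 (SE 0.21), with an interval of -0.46 to 0.41. Hspa8, the constitutive HSP70 of the cytosol, averaged 71.4 ± 8.04 CPM against 61.5 ± 7.02 CPM (SD, n = 3 each), with a difference of 0.21 (SE 0.20). Hspa5, the HSP70 of the endoplasmic reticulum, averaged 177 ± 32.3 and 194 ± 28.6 CPM. Hspa9, the mitochondrial HSP70, averaged 173 ± 17.0 and 180.3 ± 21.0 CPM. In all of these the groups overlapped. Across the 14 genes of the family, 6 differences were positive and 8 negative, with a median of -0.04 and a range of -0.43 for Hspa13 to 0.96 for Hspa1b. The family summed to 1991 ± 92.9 CPM for wild type and to 1965 ± 130.3 CPM for the other group.

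The HSP90 genes did not separate the groups. Hsp90aa1, the cytosolic alpha form, stood at 1028, 784 and 1154 CPM in wild type and at 840, 1083 and 1058 CPM without PNMA4. Its difference was -0.01 (SE 0.23), with an interval of -0.49 to 0.47, and wild type again held its highest and lowest library. Hsp90ab1, the constitutive beta form, had 131, 121 and 97.1 CPM against 113, 106 and 120.4 CPM, a difference of 0.04 (SE 0.20, interval -0.38 to 0.46). Hsp90b1, the form of the endoplasmic reticulum, had 274, 181 and 247 CPM against 188, 223 and 259 CPM, a difference of 0.07 (SE 0.22, interval -0.38 to 0.51). The 3 genes summed to 1339 ± 222 CPM against 1330 ± 164 CPM.

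The mitochondrial chaperonin varied more between libraries than between groups. Hspd1 encodes its HSP60 ring, and it had 19.7, 11.0 and 25.8 CPM in wild type and 15.2, 27.7 and 16.7 CPM without PNMA4. Hspe1, for the HSP10 lid, was thinly counted, at 5 to 17 counts per library. It had 2.63, 0.895 and 2.61 CPM against 1.59, 1.86 and 3.34 CPM. Wild type replicate 2 was the lowest library for both. The log2 differences were -0.12 (SE 0.29) and -0.16 (SE 0.50), and both turned positive without wild type replicate 2, at 0.17 and 0.26. In all, the sign changed in 3 of 13 alternatives for Hspd1 and in 3 of 11 for Hspe1. The annotated genes overlap by 96 bases, so some reads may belong to either.

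TRiC was the larger family in which the differences most shared a sign. The complex folds actin and tubulin among other proteins, and its ring is built from the products of Tcp1 and the Cct genes. Of its 9 genes, 8 had a negative log2 difference, with a median of -0.26 beside the 0.01 of all genes. None was called by edgeR at an adjusted p under 0.05, and 1 had an unadjusted p under 0.05. The summed level was 1237, 1066 and 1365 CPM in wild type and 1332, 1434 and 1562 CPM without PNMA4, so the groups overlapped through wild type replicate 3. The means were 1223 ± 150.1 and 1443 ± 115 CPM (SD, n = 3 each).

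Cct4, the delta subunit gene, had 94.9, 80.1 and 98.0 CPM in wild type and 118, 100.3 and 154 CPM without PNMA4. All wild-type libraries lay below all others, and the DKO library was the highest. The log2 difference was -0.45 (SE 0.21, interval -0.88 to -0.01), with an edgeR adjusted p of 1 and an unadjusted p of 0.0439. It shrank to -0.27 without the DKO library. Tcp1, the alpha subunit gene, had 342, 332 and 526 CPM against 467, 529.6 and 575 CPM. There, wild type replicates 1 and 2 lay below every other library and wild type replicate 3 within the other group. The difference was -0.39 (SE 0.23, interval -0.86 to 0.08), and it was -0.63 without wild type replicate 3, -0.27 without wild type replicate 2 and -0.29 without wild type replicate 1. Tcp1 overlaps Mrpl18 over 1459 bases and Acat3 over 1238 bases in RefSeq, and the strand setting of the counting is not given in the sources used here.

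Cct6b, the germ cell form of the zeta subunit gene, was singled out after its values were seen. It had 54.7, 48.7 and 54.2 CPM in wild type and 65.7, 55.3 and 70.9 CPM without PNMA4, with no overlap and a gap of under 1 CPM between the nearest libraries. Its difference was -0.28 (SE 0.20). Cct7, the eta subunit gene, had 258, 215 and 233 CPM against 226, 276 and 225 CPM, a difference of -0.05 (SE 0.20, interval -0.47 to 0.37). Cct2, the beta subunit gene and the 1 positive member, had 141, 110.1 and 128 CPM against 109, 126 and 133 CPM, a difference of 0.04 (SE 0.20). Cct3, Cct6a and Cct8 lay at -0.26, -0.19 and -0.31, and Cct5 at -0.04, all with overlapping groups.

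**Figure D3:**
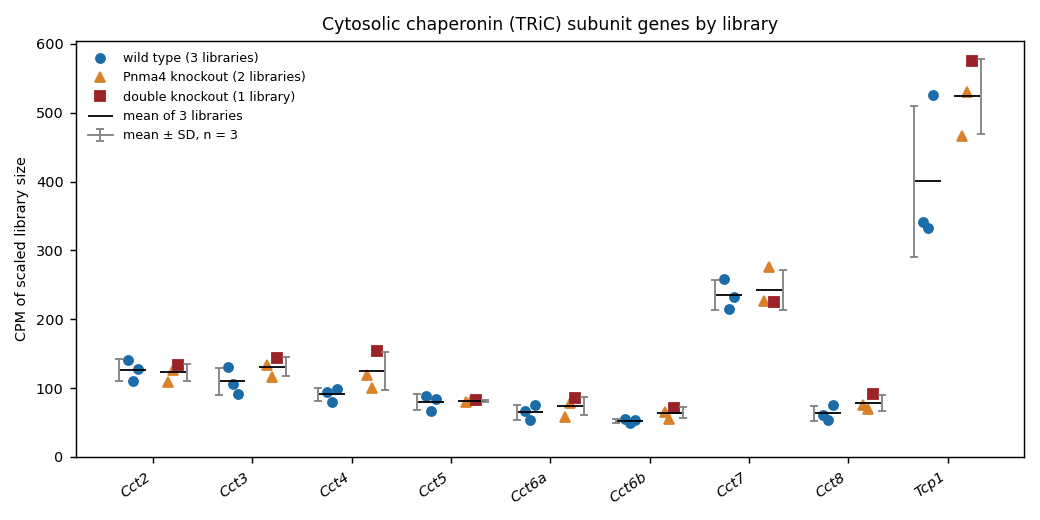
CPM of the 9 TRiC subunit genes in each of the 6 libraries (points) with mean ± SD per group. Cct4 and Cct6b have all wild-type points below the others, the remaining genes overlap, and for 6 of the 9 genes the DKO library is the highest point.

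Single libraries weighed on the TRiC pattern. Wild type replicate 2 was the lowest library for 7 of the 9 genes and the DKO library the highest for 6. Without wild type replicate 2, 6 of the 9 were negative with a median of -0.19, and without the DKO library 8 of the 9 were, also with a median of -0.19. With library totals in place of TMM scaling, the median turned to 0.06 and 2 of the 9 were negative. That scaling moved the median of all genes to 0.31, and 8 of the 9 lay below it. Over 13 alternatives, the TRiC median lay 0.21 to 0.36 below that of all genes on the log2 scale.

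Marker lists of several cell types had negative medians in the same comparison. The Leydig cell markers had a median of -0.69 with 1 of 8 tested genes positive, and the Sertoli cell markers -0.25 with 2 of 9 positive. Spermatocyte and spermatid markers had medians of -0.20 (4 of 9 positive) and -0.15 (5 of 12 positive), and the summed epididymis markers, given above, did not overlap between the groups. Against the Pnma4 knockout libraries alone, the medians were -0.18 for the Leydig, 0.01 for the Sertoli, -0.17 for the spermatocyte and -0.08 for the spermatid markers, beside -0.18 for TRiC. The part of these marker differences in the TRiC values was not tested.

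Of the 8 small heat shock genes, 4 passed the filter. Hspb7, a small heat shock gene of heart and muscle, had 17.3, 19.3 and 13.1 CPM in wild type and 11.4, 16.7 and 10.03 CPM without PNMA4, a difference of 0.34 (SE 0.26). Hspb9, a testis form, had 41.8, 18.7 and 32.9 CPM against 24.1, 32.3 and 37.5 CPM, a difference of -0.03 (SE 0.26). For both, the groups overlapped. Hspb6, whose product is HSP20, had 10.8, 19.9 and 8.76 CPM against 14.3, 14.0 and 7.36 CPM. Its difference of 0.14 (SE 0.30) became -0.32 without wild type replicate 2, and its sign turned in 2 of 13 alternatives. Hspb1, whose product is HSP27, had 7, 8 and 25 counts against 10, 20 and 11 and was named after its values were seen, for its wide interval of -1.45 to 0.44. The untested Hspb2, Hspb3, Hspb8 and Hspb11 had 5 to 38 counts over all libraries. Membership of the 8 rests on the symbol alone, without a check of what each gene encodes.

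The DNAJA genes encode class A partners of HSP70. Dnaja1 had 63.1, 41.7 and 73.9 CPM in wild type and 55.5, 70.7 and 80.6 CPM without PNMA4, a difference of -0.21 (SE 0.23). Dnaja2 had 79.9, 66.8 and 79.4 CPM against 62.8, 92.0 and 83.3 CPM, a difference of -0.08 (SE 0.21). Dnaja4 had 111, 85.2 and 77.7 CPM against 74.3, 105 and 74.2 CPM, a difference of 0.10 (SE 0.21). In each, the libraries of the groups interleaved. With Dnaja3, the mitochondrial member at 0.07, the 4 had a median of -0.01.

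The 13 DNAJB genes had a median of -0.04 and a range of -0.19 for Dnajb9 to 0.31 for Dnajb12, with 5 positive and 8 negative and all 13 groups overlapping. Dnajb6, whose product suppresses protein aggregation, had 178, 159 and 151 CPM in wild type and 148, 174 and 153 CPM without PNMA4, a difference of 0.04 (SE 0.20). Dnajb3, a DNAJ gene of testis, had 105, 84.0 and 111 CPM against 103, 119 and 108 CPM, a difference of -0.14 (SE 0.20). It lies over its whole annotated length of 1017 bases within genes of the Ugt1a cluster. Dnajb2, first described in neurons, had 103, 94.3 and 69.8 CPM against 105, 91.7 and 79.2 CPM, a difference of -0.05 (SE 0.21). Dnajb13, a radial spoke component of the sperm flagellum, averaged 35.6 ± 1.99 CPM against 36.0 ± 5.62 CPM. The family summed to 707 ± 23.5 CPM for wild type and to 732 ± 21.4 CPM for the other group.

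Of the 28 DNAJC genes, 23 were tested, with 12 positive, 11 negative and a median of 0.00. Dnajc10, a reductase and HSP70 partner of the endoplasmic reticulum, had 42.1, 45.5 and 51.6 CPM in wild type and 58.1, 58.6 and 65.9 CPM without PNMA4. All wild-type libraries lay below all others. With Cct4 and Cct6b it made 3 of the 72 tested genes lower in wild type without overlap, against 3.41% of all genes tested. The difference was -0.39 (SE 0.20, interval -0.80 to 0.03), with an edgeR adjusted p of 1, an unadjusted p of 0.0663 and -0.33 without the DKO library.

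Dnajc2, which works at the ribosome, had 129, 91.1 and 105 CPM in wild type and 74.9, 90.6 and 91.3 CPM without PNMA4. Only wild type replicate 2, between the DKO and the second Pnma4 knockout library, fell into the range of the other group. The difference was 0.33 (SE 0.21, interval -0.09 to 0.76), and it was 0.19 without wild type replicate 1. Dnajc27, a small GTPase with a J domain, had 179, 202 and 174 CPM against 214, 199.9 and 184 CPM, a difference of -0.10 (SE 0.20). Dnajc7, which binds both HSP70 and HSP90, had 126, 90.8 and 112 CPM against 88.5, 112 and 101 CPM, a difference of 0.12 (SE 0.21). Dnajc25, named after its values were seen, had the lowest log2 difference of all tested members, -0.70 (SE 0.44, interval -1.61 to 0.20), at 10 to 29 counts per library. The untested Dnajc6, Dnajc12, Dnajc17, Dnajc22 and Dnajc24 had 18 to 64 counts in total. Of these, Dnajc17 also lay lower in wild type without overlap, at 5 to 15 counts per library. It had 1.31, 0.767 and 0.922 CPM in wild type and 1.90, 2.14 and 2.34 CPM without PNMA4.

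A list of 11 testis-enriched members joined Hspa2, Hspa1l and Hspa4l with Hspb9, Cct6b, Dnajb3, Dnajb7, Dnajb8, Dnajb13, Dnajc5b and Dnajc5g. All 11 were tested, 0 were called, and 4 were positive and 7 negative with a median of -0.03. Their intervals all lay within 1 of 0. The levels summed to 1586 ± 21.6 CPM for wild type and to 1557 ± 75.5 CPM for the other group (SD, n = 3 each).

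Genes that work with these chaperones were not called either. Of 50 listed co-chaperones, heat shock factors, prefoldin subunits and partner chaperones, 47 were tested, 24 were positive, and edgeR called 0 in either direction, with a median of 0.01. Bag6, an HSP70 cofactor needed in meiosis, averaged 651 ± 257 CPM against 558 ± 88.6 CPM, a log2 difference of 0.22. Clgn, the testis lectin chaperone of the endoplasmic reticulum, averaged 393 ± 35.5 and 384 ± 49.4 CPM, a difference of 0.03. Bag5, a nucleotide exchanger of HSP70, averaged 269.5 ± 67.7 and 258 ± 21.1 CPM, and Hsf5, the heat shock factor of spermatocytes, 234 ± 60.7 and 248 ± 28.8 CPM. The prefoldin gene Vbp1 and Pdcl2 had unadjusted p-values under 0.05 (0.0445 and 0.0478), with negative differences, adjusted p-values of 1 and overlapping groups.

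The second comparison set the DKO library against the pair of Pnma4 knockout libraries, to ask whether loss of Pnma1 beside Pnma4 changed these genes. It rests on 1 library, which edgeR's fit takes to vary like the others, and shares the libraries lacking PNMA4 with the first comparison. edgeR called 0 of the 72 genes, against 0.0746% of all genes tested, with a lowest adjusted p of 0.832. An unadjusted p under 0.05 was reached by 0 of the 72 and by 830 of the 13413 genes. DESeq2 also called 0, of the 63 with an adjusted p. For 39 of the 72 genes the interval lay within 1 of 0, or 54.2% against 29.0% of all genes, so this comparison was the less precise of the 2. Here too, the share over all genes was not matched for depth of counting.

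By point estimates, 44 of the 72 differences, DKO over Pnma4 knockout, were positive (61.1%, against 49.5% of all genes), with a median of 0.11 beside -0.01 for all genes. In TRiC, 8 of the 9 were positive, with a median of 0.21, and Cct4 lay at 0.50 (SE 0.32, edgeR adjusted p = 0.951). Hspa2, Hspa1l and Hspa4l lay at -0.12, -0.15 and 0.22, with standard errors of 0.33 to 0.36. The members of lowest p were Dnajc25 at 1.13 (SE 0.58, edgeR adjusted p = 0.832) and Hspb6 at -0.94 (SE 0.49, edgeR adjusted p = 0.844). The higher Rn18s-rs5 share and the higher Leydig and Sertoli cell marker sums of the same library, given above, moved with these values. Their part in these values was not tested. Wild type against the Pnma4 knockout libraries alone, in the same fit, gave 0 called members, a TRiC median of -0.18 with 1 of 9 positive, and 31 of 72 positive overall.

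Libraries differed in how often they were at an extreme. Wild type replicate 2 was the lowest library for 26 of the 72 genes (36.1%), against 16.5% of all tested genes. Its low values included Hspe1, Hspd1, Hspb1, Hspb9, Dnaja1 and Dnajc25, while Hspa2 and Hspb6 were at their highest there. Wild type replicate 1 was the highest for 20 genes (27.8%, against 18.3%) and the DKO for another 20 (27.8%, against 22.8%). Per-library medians of the deviation from each gene's mean over the 6 libraries ran from -0.10 in wild type replicate 2 to 0.07 in wild type replicate 1 and in the DKO, on the log2 scale with 1 CPM added.

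**Figure D4:**
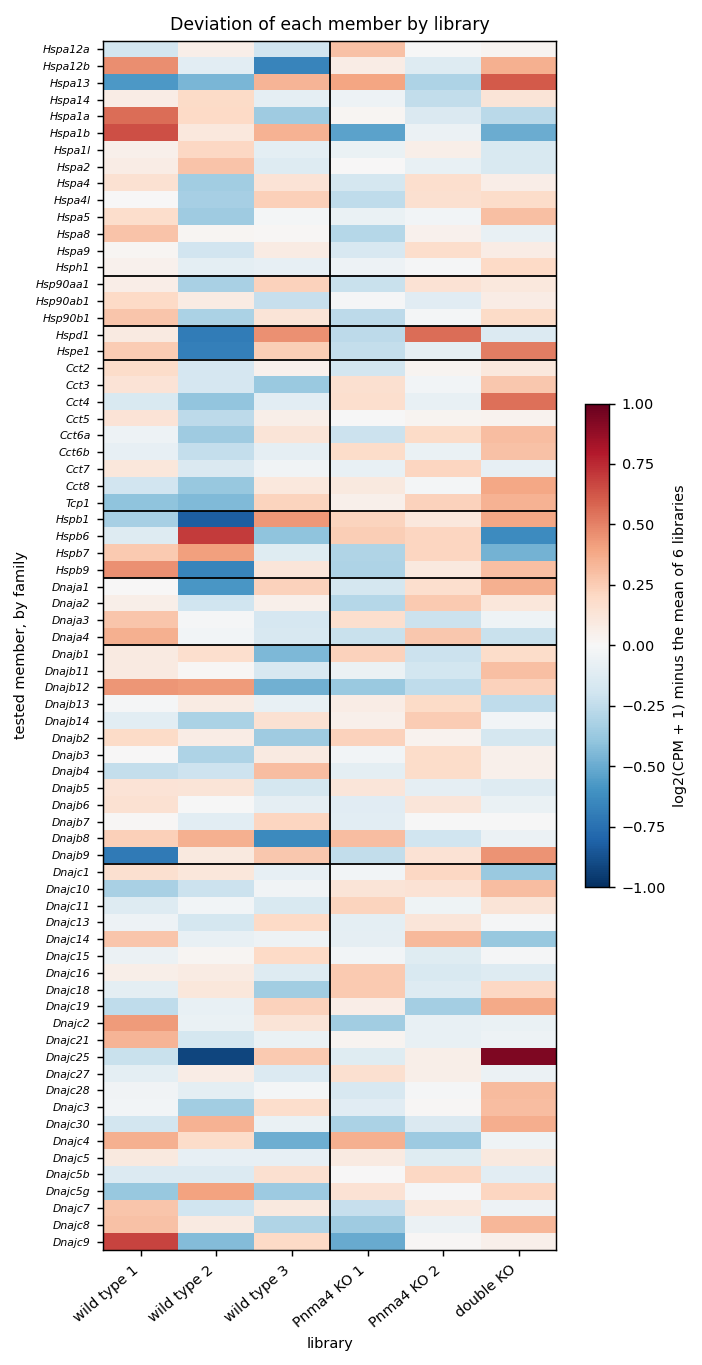
Log2(CPM + 1) minus the gene's mean over the 6 libraries, for the 72 tested genes (rows, by family) and the 6 libraries (columns). Low values gather in wild type replicate 2, the lowest library for 26 of the 72 genes and for 7 of the 9 TRiC genes.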

How the data were processed

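The authors deposited 1 table of raw counts per Ensembl gene ID, and these values were not altered. The submitters' processing notes name bcl2fastq 2.20, STAR 2.5.2b, featureCounts, DESeq2 and the build GRCm38. The role of each tool, whether strand was used, how reads shared by genes were treated and which annotation was counted are not given in these sources. Total counts were 3138657 to 6367930 per library, and reads are not independent molecules. Depth alone did not set the precision: Hsp90aa1, at 2646 to 7584 counts per library, had an SE of 0.23. Dnajb6, at 458 to 1246 counts per library, had an SE of 0.20. No pair of libraries agreed within sampling noise, with a chi-square per gene of at least 8.60.

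Counts were tested with the quasi-likelihood test of edgeR 4.0.16 in R 4.3.3 (filterByExpr, min.count 10, min.total.count 15; TMM scaling; Benjamini-Hochberg adjustment at 0.05 over 13413 genes), without a replicate block. Groups were wild type and lacking PNMA4, and a fit with 3 genotypes gave the DKO contrast. Standard errors were taken as |log2 fold change| over the root of F, and intervals from the t distribution. That estimate is uncertain for a difference near 0 at a few counts. The step was also run on counts simulated from the spread fitted here, with no difference between the DKO and the Pnma4 knockout. Since it takes that spread as given, this run cannot show whether the intervals hold for these libraries. Alternatives were DESeq2 1.42.0, other scalings and filters, a replicate block and leaving out each library.

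The members and lists were chosen with earlier results of these data known. Values per library are given for Hspa2, Hspa1l and Hspa4l, called members, the 3 tested members of highest mean CPM in each family and the 3 of lowest p in each direction. Of the co-chaperones, called genes and the 4 of highest mean CPM are named, and other genes were named after their values were seen. All 81 symbols matched RefSeq's gene table of GRCm38.p6, in which 37 overlap another gene. Rows named as pseudogenes of members held 0 to 10 counts each. Levels were not compared between genes, since exon lengths were not used here.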

Additional observations from a re-analysis of the deposited data

How the results depend on the processing

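In each of the 13 alternatives, 0 chaperone genes were called in the comparison of wild type with lacking PNMA4, and the DKO comparison likewise had 0 in each alternative run for it. Calls among all genes, 8 as reported in the first comparison, were 3 under the stricter filter, 31 without a filter and 18 without the DKO library. In the second, 10 as reported, they were 16 with DESeq2, 31 without a filter, 201 with library totals alone and 10 to 35 when 1 library was left out, the highest without wild type replicate 3. The stricter filter left 63 members and gave no value for Hspa1b or Hspe1, and the DKO comparison could not be made without the DKO library. The median log2 difference of the members, -0.04 as reported, was 0.25 with library totals alone, where all genes had a median of 0.31. Leaving out 1 library at a time gave -0.09 to 0.01, the highest without wild type replicate 2. The replicate block gave -0.04 and changed no call. Same-numbered libraries had correlations of 0.05, -0.07 and 0.10 between their deviations, and unlike-numbered libraries had -0.22 to 0.22. With 3 libraries per group, these correlations cannot decide whether the numbers pair libraries. Of the 27 members named by the rule, 9 kept their sign in all alternatives and 18 changed it in at least 1. For 3 of these 18 (Dnaja1, Dnajb3 and Dnajc27) that was library totals alone, which shifts all genes upward together, and the other 15 changed sign in another alternative. Family medians under each alternative were added after seeing the data. Genes at a few counts, such as Hspa1b, Hspe1, Hspb1 and Dnajc25, have intervals that reach past 1 from 0 on the log2 scale.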
